A study of Mus musculus with 18 samples.

Results

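AP-1 is a family of transcription factors that bind DNA as dimers. Here 8 of its genes were followed in regulatory T cells (Tregs): Fos, Fosb, Fosl2, Jun, Junb, Jund, Atf3 and Batf3. They were taken by gene symbol, and each matched 1 of the 50600 gene identifiers in the count table. The data were RNA-seq read counts per gene from FACS-sorted Foxp3+ Tregs of 18 C57BL/6 mice. In the thymus, 5 Foxp3/RFP reporter mice (WT) were compared with 5 "cured" CD25cKO mice at 3–4 weeks of age. CD25cKO mice carry CD25 flox/flox and Foxp3 YFP/Cre, so that Cre made from the Foxp3 locus excises exon 4 of Il2ra, the gene of CD25. They were cured by WT splenocytes given after birth, which leave donor Tregs in the host, and the Tregs were sorted by their reporter. In the spleen, 4 CD25flox/Foxp3eGFP-Cre-ERT2/R26Y mice (CD25 KO) were compared with 4 reporter controls (WT). Both splenic groups were given tamoxifen at 7–10 weeks of age and were examined 10–14 days later. Each library came from 1 mouse.

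Within a dimer, Fos proteins pair with Jun proteins, while Jun proteins can also pair among themselves. The dimers bind TGANTCA (N is any base) or related sequences. Fos, Fosb, Jun, Junb and Atf3 are immediate early genes, which T cells switch on within minutes of antigen receptor or stress signals through MAP kinases and serum response factor. In T cells, AP-1 binds beside NFAT at cytokine genes, and Batf family proteins bind with Jun proteins and IRF4 in effector T cells and effector Tregs. Immediate early genes are also known to respond to the handling of cells during isolation.

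The promoters of 4 members are shown because 3 of them, Fos, Fosb and Jun, varied together among the mice, and because Fosl2 was the member that differed with CD25 in the spleen. Each sequence is the 250 bases before the RefSeq transcription start in GRCm38.p6, written 5′ to 3′ on the strand of the gene, with the motifs found in it in capitals.
Fos, chr12:85473640-85473889, plus strand: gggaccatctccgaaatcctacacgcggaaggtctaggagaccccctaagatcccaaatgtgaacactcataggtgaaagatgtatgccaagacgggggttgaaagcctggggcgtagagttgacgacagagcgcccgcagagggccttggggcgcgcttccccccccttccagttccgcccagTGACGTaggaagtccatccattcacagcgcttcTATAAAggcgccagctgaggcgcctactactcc
Fosb, chr7:19310046-19310295, minus strand: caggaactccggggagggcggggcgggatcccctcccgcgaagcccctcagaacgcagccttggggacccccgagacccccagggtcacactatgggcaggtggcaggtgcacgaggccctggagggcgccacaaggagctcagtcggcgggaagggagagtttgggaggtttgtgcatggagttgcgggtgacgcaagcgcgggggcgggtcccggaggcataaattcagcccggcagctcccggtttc
Jun, chr4:95052223-95052472, minus strand: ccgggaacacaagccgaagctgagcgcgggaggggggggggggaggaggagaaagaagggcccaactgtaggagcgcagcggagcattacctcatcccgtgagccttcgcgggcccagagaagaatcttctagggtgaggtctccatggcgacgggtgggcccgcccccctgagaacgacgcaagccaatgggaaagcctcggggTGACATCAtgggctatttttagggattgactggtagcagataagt
Fosl2, chr5:32136222-32136471, plus strand: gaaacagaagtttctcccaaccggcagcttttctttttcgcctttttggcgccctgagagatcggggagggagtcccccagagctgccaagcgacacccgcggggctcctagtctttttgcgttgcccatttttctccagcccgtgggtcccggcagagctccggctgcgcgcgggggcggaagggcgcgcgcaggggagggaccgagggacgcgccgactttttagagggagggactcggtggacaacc

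Both strands of the 8 promoters were searched for the AP-1 motif TGANTCA and for its longer relative TGACNTCA. The core of the cyclic AMP response element was searched as TGACGT. The TATA box was searched as TATAAA. The motif of STAT5, which IL-2 activates, was searched as TTCNNNGAA, and the CArG box of serum response factor was searched as well. TGACNTCA and TGACGT overlap where N is G. The Fos promoter held TGACGT at 66 to 61 bases before the start and TATAAA at 33 to 28 bases before it. The Jun promoter held TGACATCA, a match to TGACNTCA, at 45 to 38 bases before the start. Atf3 held TGACGT on the opposite strand at 8 to 3 bases before the start, and Batf3 held TTCNNNGAA at 239 to 231 bases before it. These letters were not found in the windows of Fosb, Fosl2, Junb and Jund. The RefSeq start did not always match the annotated start of the counted gene. For Jund it was at 70697739, upstream of the gene start at 70698949. For Atf3 it was at 191183333, well inside the gene, which starts at 191218039 on the minus strand. The windows of Jund and Atf3 are therefore not those just before the annotated gene. Of 32851 RefSeq promoters of the same length, 6.75% held the AP-1 motif, 7.49% its longer relative, 6.47% the cyclic AMP element core, 12.4% the TATA box, 7.02% the STAT5 motif and 1.47% the CArG box. Fosb had no match to any searched motif, so a match common to Fos, Fosb and Jun could not be found here. Fos and Jun, whose transcripts varied with that of Fosb, had matches to different motifs. Sequence further upstream was not searched, so whether these genes share an element outside the windows was not tested. A match is a description of the sequence and not evidence of binding.

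Thymic libraries held 17239774 to 23993674 counts and splenic libraries 25258341 to 32639570. Levels are given in CPM, counts scaled to a common library size, with TMM scaling over all 18 samples. Il2ra was at 524–682 CPM in thymic WT mice and 95.9–280 in thymic CD25 KO mice, and at 488–539 against 168–208 CPM in the spleen, so that every mouse matched its label. Reads outside exon 4 still count toward Il2ra. Thymic CD25 KO mice 2 and 4 stood apart with 280 and 234 CPM, while the other 3 were at 95.9–105. Foxp3 was between 204 and 578 CPM in every library and fell with CD25 deficiency in both tissues (log2 fold change -0.74 in thymic and -0.55 in splenic Tregs). Of 7 Treg and T cell markers, Foxp3 and Il2ra included, 3 fell in the thymus, and 2 fell and 4 rose in the spleen. The 6 immature thymocyte markers summed to 172 CPM in thymic WT mouse 4 and to 98.2 in thymic CD25 KO mouse 5. They summed to 40.01–73.7 in the other thymic mice and, in splenic mice, to 8.32–11.2, where Rag1 had no read.

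Of the 8 members, 5 had enough reads to be tested, and Jund, Atf3 and Batf3 did not. Tests were quasi-likelihood tests in edgeR, adjusted over all genes after Benjamini and Hochberg, and a gene was called differentially expressed at FDR under 0.01. Per kilobase of exon, Junb was the most abundant of the tested members in the mean of every group, from 80.6 ± 15.1 CPM per kilobase in thymic WT (SD, n = 5) to 234 ± 19.2 in splenic CD25 KO (SD, n = 4). Jun and Fos came next in the spleen, at 58.9 ± 6.64 and 50.4 ± 9.63 in WT (SD, n = 4), with overlapping SDs. Fosl2 was the least abundant in splenic mice, at 2.21 ± 0.207 in WT and 4.06 ± 0.543 in CD25 KO (SD, n = 4). In thymic CD25 KO mice Fosb was the least abundant, at 3.68 ± 1.68 CPM per kilobase, and Fosl2 was at 7.65 ± 0.944 (SD, n = 5). By mean, the order Jun, Fos, Fosb, Fosl2 below Junb was the same in thymic WT and in both splenic groups. It was not the order of every mouse. In thymic WT, the means of Jun (39.3 ± 21.8) and Fos (36.1 ± 25.5) were within their SDs of each other. Fos was above Jun in WT mice 1 and 3, and Fosl2 was above Fosb in WT mice 4 and 5. The order of means differed in thymic CD25 KO mice, where Fosl2 was above Fosb in every mouse. There the means of Fos (15.9 ± 2.56) and Jun (14.6 ± 2.64) were also within their SDs of each other.

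**Figure D1:**
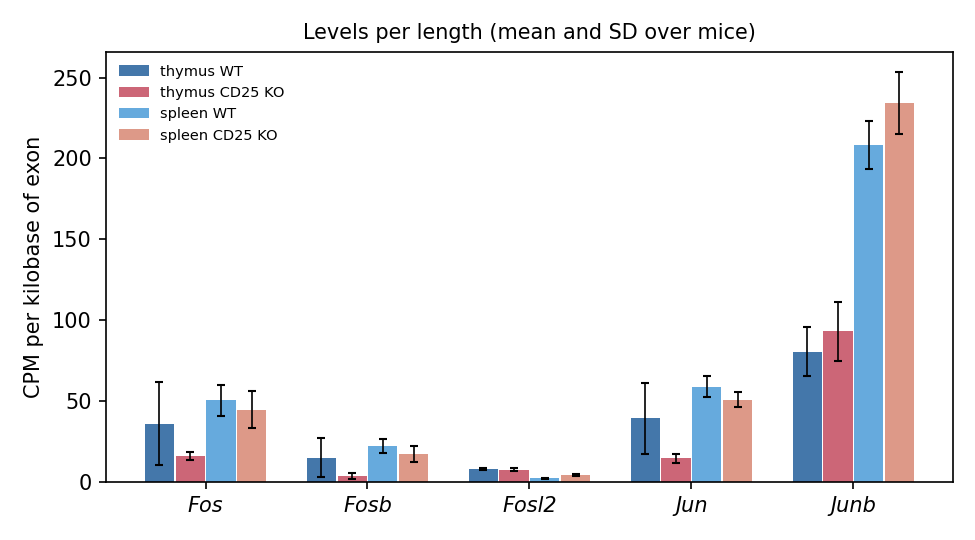
Levels of the 5 tested AP-1 genes in CPM per kilobase of exon (linear axis), with bars for the mean and error bars for the SD over 5 thymic or 4 splenic mice per group. Junb is the highest in all 4 groups, and it ranges from 80.6 in thymic WT to 234 in splenic CD25 KO.

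Whether CD25 deficiency changed AP-1 transcripts was asked first in the spleen. There, Fosl2 rose 1.83-fold in CD25 KO Tregs and was the 1 member of the 5 tested that was called, while 9.45% of the 17463 genes tested were called (5.90% higher, 3.55% lower). Fosl2 encodes Fra-2, a Fos family protein. Its level was 23.1, 20.5, 19.02 and 23.0 CPM in the WT mice and 34.1, 39.4, 46.4 and 37.2 CPM in the CD25 KO mice. Every CD25 KO mouse was above every WT mouse. The log2 fold change was 0.88 (SE 0.0919) with an adjusted p of 9.67e-06 by edgeR's quasi-likelihood test.

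Junb, the Jun family member that many T cell subsets express, was at 449, 453, 516 and 501 CPM in splenic WT and at 506, 535, 513 and 603 CPM in CD25 KO mice. The groups overlapped, with 3 WT mice below all CD25 KO mice. The log2 difference was 0.17 (SE 0.0651) and did not pass the test (edgeR adjusted p = 0.0894). Jun was at 172, 167, 204 and 208 CPM in WT and at 164, 174, 140 and 169 CPM in CD25 KO mice. Jun overlapped as well, and 2 WT mice were above all CD25 KO mice. Its log2 difference was -0.21 (SE 0.0794, edgeR adjusted p = 0.0836).

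Fos, the founding member of the family, was at 96.5, 102, 138 and 138 CPM in splenic WT and at 74.0, 102, 105 and 140 CPM in CD25 KO mice. The ranges were nearly the same, apart from the lowest CD25 KO mouse, and the log2 difference was -0.17 (SE 0.151, edgeR adjusted p = 0.497). Fosb, which is closely related to Fos, was at 120, 115, 149 and 174 CPM in WT and at 73.1, 102, 105 and 152 CPM in CD25 KO mice. CD25 KO mice 1, 2 and 3 were below all WT mice, and CD25 KO mouse 4 was within the WT range. The log2 difference of Fosb was -0.37 (SE 0.166) with an edgeR adjusted p of 0.151, and it was called without CD25 KO mouse 4 (-0.58, adjusted p = 0.00969) and without the filter on low counts (-0.37, adjusted p = 4.12e-04).

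**Figure D2:**
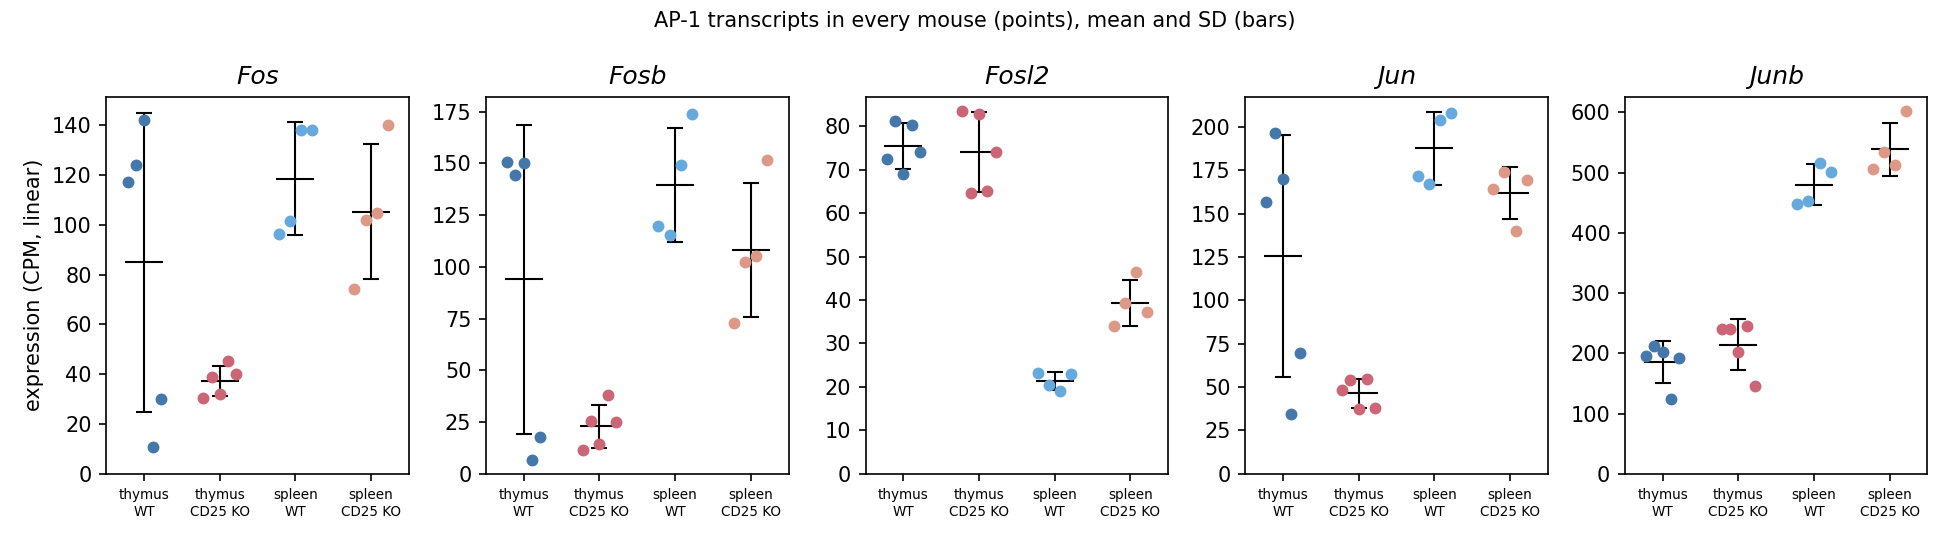
Expression of the 5 tested AP-1 genes in every mouse (points, CPM on linear axes that start at 0), with the mean and SD of each group as bars. Splenic Fosl2 separates by genotype (19.02–23.1 in WT, 34.1–46.4 in CD25 KO), and thymic WT mice spread widely in Fos, Fosb and Jun.

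Markers of NK cells moved with Fosl2 in the spleen. The 4 markers summed to 11.9–19.1 CPM in CD25 KO and to 4.89–8.17 in WT mice, Gzma (log2 fold change 3.09) and Klrb1c (1.90) of the 3 tested were called higher, and Ncr1 had no read in either group. Myeloid markers summed to 21.7–28.7 CPM in CD25 KO and 16.5–22.9 in WT mice with Lyz2 called higher (1.03), of 4 tested, and S100a9 had no read in WT. Of these 4, 2 were above 0 and 2 below, with a median log2 difference of -0.09. B cell markers summed to 20.1–24.0 and 20.8–22.4 CPM with Pax5 called higher (1.04), of 3 tested. Of these 3, 2 were above 0 and 1 below, with a median of 0.02. Stromal markers summed to 139–166 CPM in CD25 KO and 180–196 in WT, with Pecam1 called lower (-0.37), of 4 tested. Of these 4, 2 were above 0 and 2 below, with a median of 0.11. Immature thymocyte markers summed to 8.75–11.2 and 8.32–10.5 with none of 3 called by either tool (2 at an unadjusted p under 0.05). Per the study's methods, CD4+ cells were taken on magnetic beads and sorted by reporter. By flow cytometry at the same time after tamoxifen, the study found a larger share of effector Tregs among splenic CD25 KO Tregs. It proposes that some of the RNA changes in these cells reflect this shift. The part of other cell types, or of this shift, in the Fosl2 difference was not tested. A change in the kinds of cell sorted cannot be told apart from a change of RNA per cell in bulk samples.

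Other genes of the pathway were read beside the members, against the 5.90% of all genes called higher and 3.55% called lower in the spleen. Of 12 tested bZIP factors that can pair with or compete with AP-1, 3 were called higher and 1 lower. Batf (log2 fold change 0.78, SE 0.0596), a Jun partner of effector T cells, and Maf (0.78, SE 0.0834), a regulator of IL-10, rose, as did Mafg (0.31). Bach2, a repressor that competes at AP-1 sites and keeps T cells resting, fell by 0.65 (SE 0.0832). None of the 15 kinases and serum response factors upstream of AP-1 was called by edgeR, with log2 differences from -0.10 to 0.18. At an unadjusted p under 0.05 there were 3 of them, and DESeq2 called 1. Of 25 immediate early genes outside AP-1, 6 rose, with Ier3 (1.18), Egr2 (0.65) and Nr4a2 (0.62) the largest, and Nfkbiz fell by 0.31. Of 8 tested genes taken from textbooks as AP-1 targets, Il4 (1.31) and Ifng (1.25) rose and Tnf fell by 0.40. The median log2 difference was 0.12 for the bZIP factors, 0.03 for the upstream genes, 0.10 for the immediate early genes and 0.18 for the targets, against -0.01 for all genes tested.

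In the thymus, Fos, Fosb and Jun were lower in the mean of CD25 KO Tregs, but none of the 5 tested members was called by edgeR at FDR under 0.01, where 6.16% of 16986 genes were (3.17% higher, 2.99% lower). At an unadjusted p under 0.05 there were 3 (Fos, Fosb and Jun), and DESeq2 called 1 (Jun). In Fos, Fosb and Jun, the WT mice differed from each other far more than the CD25 KO mice did. Reporter, Cre and the transfer of WT splenocytes went with CD25 genotype in the thymus and cannot be told apart from it.

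Fos was at 117, 124, 142, 10.8 and 30.2 CPM in thymic WT mice 1 to 5, and at 30.6, 39.0, 32.1, 45.3 and 40.03 CPM in CD25 KO mice 1 to 5. WT mice 1, 2 and 3 were above all CD25 KO mice, and WT mouse 4 was far below and WT mouse 5 just below all of them. The log2 difference was -1.16 (SE 0.512, edgeR adjusted p = 0.117).

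Fosb was at 151, 145, 150, 6.72 and 17.8 CPM in WT and at 11.7, 25.5, 14.6, 38.1 and 25.1 CPM in CD25 KO mice. The same WT mice 1, 2 and 3 were above all CD25 KO mice, WT mouse 4 was below all, and WT mouse 5 was within their range. The log2 difference was -2.004 (SE 0.691, edgeR adjusted p = 0.0531).

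Jun was at 157, 197, 170, 34.5 and 69.7 CPM in WT and at 48.3, 53.9, 37.5, 54.8 and 37.8 CPM in CD25 KO mice. Here 4 of 5 WT mice were above all CD25 KO mice, and WT mouse 4 was below them. The log2 difference was -1.41 (SE 0.369, edgeR adjusted p = 0.0192). Jun was called without WT mouse 4 (-1.65, adjusted p = 0.00320), without WT mouse 4 and CD25 KO mouse 5, the 2 mice with the most immature thymocyte marker counts (-1.59, adjusted p = 0.00449), with DESeq2 (-1.41, adjusted p = 0.00856) and without the filter on low counts (-1.41, adjusted p = 0.00808). It was also called when all 18 samples shared 1 fit (-1.43, adjusted p = 0.00174).

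Junb spread less than Fos, Fosb and Jun in thymic WT mice. It was at 195, 212, 203, 124.9 and 192 CPM in thymic WT and at 240, 240, 202, 245 and 146 CPM in CD25 KO mice. WT mouse 4 and CD25 KO mouse 5 were the lowest of their groups, and the groups overlapped (log2 difference 0.23, SE 0.155, edgeR adjusted p = 0.301). Fosl2 was at 72.4, 81.3, 69.0, 80.3 and 74.0 CPM in WT and at 83.6, 64.7, 82.7, 65.1 and 74.2 CPM in CD25 KO mice. The WT range of Fosl2 lay within the wider CD25 KO range. CD25 KO mice 1 and 3 were above all WT mice, and CD25 KO mice 2 and 4 were below all of them. The log2 difference was -0.01 (SE 0.0800, edgeR adjusted p = 0.934).

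**Figure D3:**
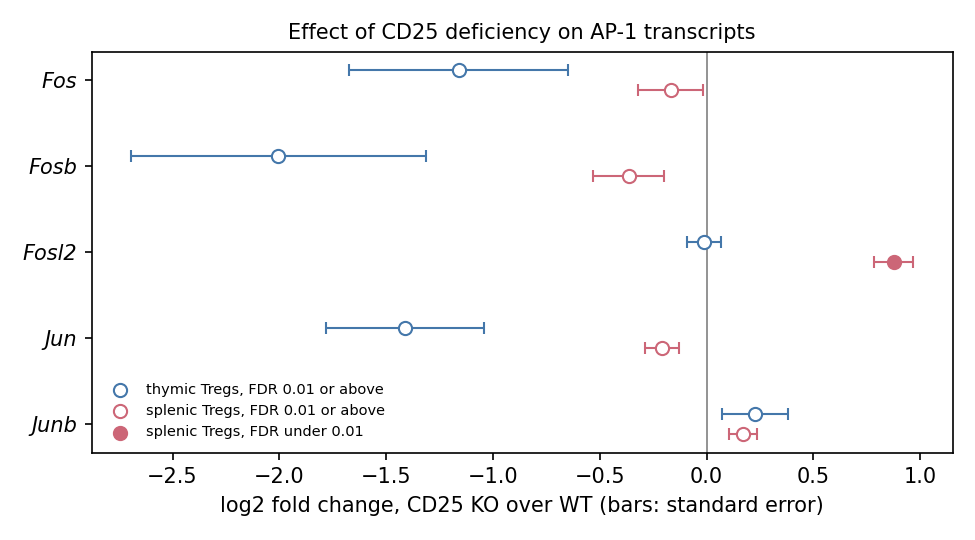
Log2 fold change of CD25 KO over WT for the 5 tested AP-1 genes in thymic (blue) and splenic (red) Tregs, with bars for the standard error and filled points for FDR under 0.01. Splenic Fosl2 at 0.88 is the 1 filled point, and the thymic values of Fosb (-2.004), Jun (-1.41) and Fos (-1.16) have the widest bars.

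The coefficient of variation (the SD over the mean of CPM) in thymic WT mice was 79.5% for Fosb, 70.5% for Fos and 55.5% for Jun. Of 9461 genes with a mean log2 CPM of at least 3, 6, 7 and 12 had a larger value there, and the median gene had 7.35%. Junb was at 18.7%, larger than in 94.2% of these genes, and Fosl2 at 6.97%. In thymic CD25 KO mice the spread of Fosb was 45.5%, that of Fos 16.1% and that of Jun 18.1%, where the median gene had 9.40%. In the spleen, Fosb and Fos varied by 19.7% and 19.1% in WT and by 30.0% and 25.7% in CD25 KO mice, against medians of 5.49% and 6.74%. Fosb and Fos were thus among the more variable genes in the spleen as well, where no mouse was as low as the thymic WT mice 4 and 5.

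The variation was shared among members. After subtraction of each group's mean log2 CPM, Pearson's r of Fos was 0.98 with Fosb, 0.94 with Jun and 0.94 with Polg2, which encodes the accessory subunit of the mitochondrial DNA polymerase (n = 18 mice in 4 groups, 9448 genes compared). These points share a library, the choice of the 3 genes was made on r itself, and r is given as a description. Without the 5 thymic WT mice (n = 13), r with Fos was 0.88 for Fosb, 0.40 for Jun and 0.69 for Polg2, so that the likeness of Fos to Jun rested mostly on the thymic WT mice. Fosb had the same 2 next genes, Jun (0.93) and Polg2 (0.92). Jun was most like Fos, Fosb and Ppp1r15a (0.91), which encodes a stress-induced subunit of a phosphatase that restores translation. Junb was most like Rhob (0.96), a small GTPase, Tpm3 (0.91), a tropomyosin, and Zfp622 (0.91). The r of Junb was 0.75 with Jun, 0.63 with Fos and 0.57 with Fosb. Without the thymic WT mice these were 0.78, 0.27 and 0.16. Fosl2 was most like St6galnac3 (0.78), a sialyltransferase, Lrba (0.73), which protects CTLA4 from degradation, and Sla2 (0.73), an adaptor that dampens T cell receptor signals, and its r with Fos was -0.21.

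Genes that respond to handling of cells were read beside these values, since thymic suspensions were made by mechanical disruption and the cells went through magnetic beads and FACS. Of 10 tested heat shock genes, 7 were called lower in thymic CD25 KO Tregs, where 2.99% of all genes were, and none higher, with Hspa1a (log2 fold change -4.98), Hspa1b (-4.31) and Hsph1 (-0.81) the largest. Hspa1a and Hspa1b are near-identical copies, so that the split of reads between them is uncertain. The 11 genes of the list summed to 2694–3428 CPM in thymic WT and to 2100–2689 in thymic CD25 KO mice, ranges that barely cleared each other. Abundant genes weighed most in this sum. Hsp90ab1 and Hspa8, named after their values were seen, had means of 1225 and 731 CPM in thymic WT, where the mean sum was 3059. In thymic CD25 KO mice they had 890 and 763 CPM, and the mean sum was 2422. Hspa1a had a mean of 3.66 CPM in thymic WT. Whether the sum follows the handling of cells was not tested. In the spleen none of 9 was called by edgeR or DESeq2, 0 had an unadjusted p under 0.05, and the sums were 2136–2615 and 2198–2567 CPM. The list's median log2 difference was -0.47 for thymic and -0.05 for splenic Tregs.

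Among thymic WT mice, Hspa1a and Hspa1b followed the order of Jun exactly and that of Fos apart from mice 2 and 3, whereas Dnajb1 and Hsph1 did not. Hspa1a was at 1.94, 8.12, 6.33, 0.594 and 1.32 CPM in WT mice 1 to 5 and at 0–0.218 in CD25 KO mice. Hspa1b was at 5.67, 26.5, 16.6, 2.29 and 4.01 CPM in WT mice 1 to 5 and at 0.350–0.692 in CD25 KO mice. Dnajb1, a co-chaperone named after its values were seen, was at 104, 145, 126.7, 100.3 and 150 CPM in WT and at 75.1–82.7 in CD25 KO mice. Hsph1 was at 118, 163, 142, 145 and 185 CPM in WT and at 53.5–114 in CD25 KO mice. Hspa1a and Hspa1b were lowest in WT mice 4 and 5, as Fos was, whereas Dnajb1 and Hsph1 were highest in WT mouse 5. Each of these 4 genes was higher in every WT mouse than in any CD25 KO mouse. Hspa1a, Hspa1b and Hsph1 were named for their large fold changes in this same comparison, and Dnajb1 after its values were seen. Their separation by genotype is therefore no further result. The part of cell isolation in the values of Fos, Fosb and Jun was not tested.

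Of 24 tested immediate early genes outside AP-1, none was called higher by edgeR in the thymus and 3 fell: Rgs1 (log2 fold change -0.77), Klf2 (-0.53) and Ier2 (-0.38). Of all genes, 3.17% were called higher and 2.99% lower. At an unadjusted p under 0.05, 1 was higher, and DESeq2 also called 1 higher. The median was -0.02, and the list summed to 3260–3996 CPM in WT and 3266–4298 in CD25 KO mice. Egr1 and Nr4a1, immediate early genes of T cell receptor signals named after their values were seen, were at 155, 181, 174, 132 and 169 CPM and at 284, 310, 261, 265 and 313 CPM in WT mice 1 to 5. WT mouse 4 was the lowest in Egr1 and WT mouse 5 the highest in Nr4a1, and neither gene had the gap between WT mice 1, 2 and 3 and WT mice 4 and 5 that Fos had. Klf4, Ppp1r15a and Dusp1, also named after their values were seen, were lowest in WT mouse 4, at 1.19, 18.7 and 93.4 CPM. WT mice 1, 2 and 3 had 9.70–11.7 CPM of Klf4 and 57.2–62.4 of Ppp1r15a, and WT mouse 5 was between at 3.29 and 42.9. Dusp1 was at 194–226 CPM in WT mice 1, 2 and 3 and at 185 in WT mouse 5, without such a gap. The CD25 KO mean was above the WT mean for Ppp1r15a (67.7 against 48.6 CPM) and Dusp1 (219 against 183). It was below the WT mean for Klf4 (4.06 against 7.47), and none of these was called by edgeR.

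**Figure D4:**
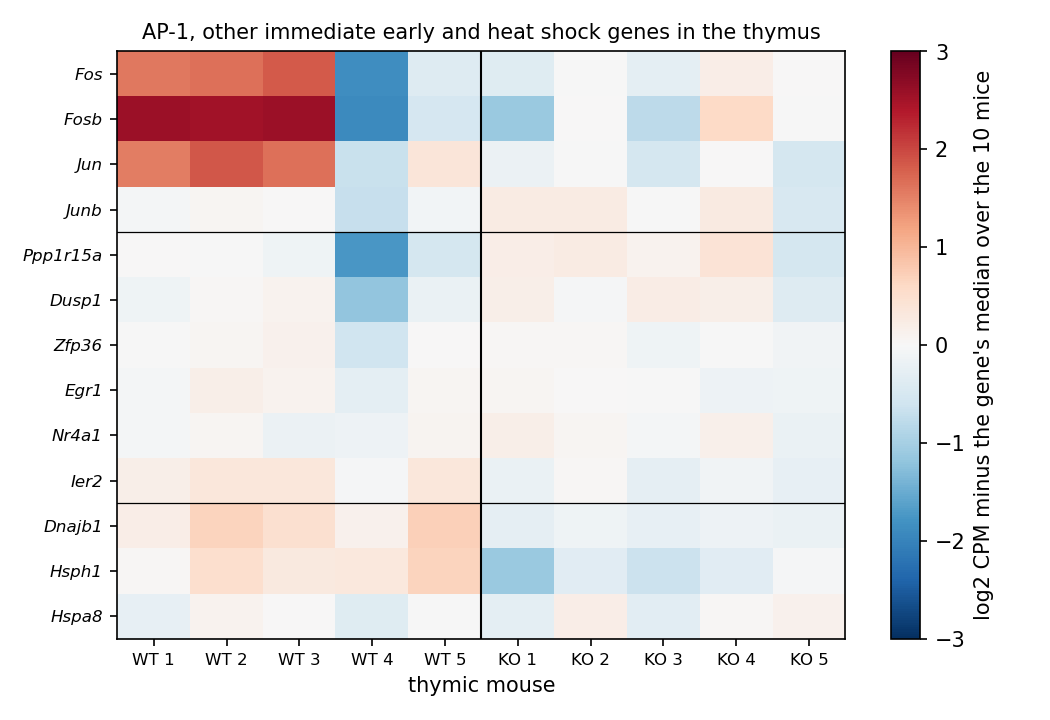
Heat map of log2 CPM minus the median of each gene over the 10 thymic mice (columns, WT 1 to 5 and CD25 KO 1 to 5) for 4 AP-1 genes, 6 other immediate early genes and 3 heat shock genes, with red above and blue below the median. Fos, Fosb and Jun are high in WT mice 1, 2 and 3 and low in WT mouse 4, whereas Dnajb1 and Hsph1 are above the median in all 5 WT mice.

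The immature thymocyte marker sum of 172 CPM in WT mouse 4 moved with its low Fos, Fosb, Jun and Junb, but WT mouse 5, the next lowest in Fos, had the lowest sum, 40.01 CPM. None of the 5 tested immature thymocyte markers was called by edgeR or DESeq2 in the thymus, and 0 had an unadjusted p under 0.05. The other marker lists overlapped between thymic WT and CD25 KO mice, at 11.8–14.5 and 10.2–14.5 CPM for B cells, 9.69–29.6 and 7.05–21.1 for myeloid cells (S100a8 without a read in CD25 KO), and 3.76–5.96 and 3.57–7.30 for NK cells (Ncr1 without a read in CD25 KO). Stromal markers summed to 202–228 and 204–242 CPM. None of these was called by either tool, with 1 of 3 myeloid markers at an unadjusted p under 0.05. The library names of WT mice 1, 2 and 3 end in S1 to S3 and those of WT mice 4 and 5 in S9 and S10, with the CD25 KO mice between them, and what these suffixes stand for is not given in the sources used here. Whether any of these is linked to the low values was not tested.

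The pathway lists in the thymus stand against 3.17% of all genes called higher and 2.99% called lower. Of 12 tested bZIP factors 1 was called by edgeR, a share near that of all genes: Atf2, a Jun partner that MAP kinases activate, rose (log2 fold change 0.44, SE 0.0751). At an unadjusted p under 0.05 there were 5 of them, 1 of these higher, and DESeq2 called 3, 1 of these higher. Batf, called higher in the spleen, was at -0.46 in the thymus (SE 0.103, edgeR adjusted p = 0.0106). The effects on Batf differed by 1.26 between the tissues (SE 0.123, edgeR adjusted p = 1.47e-06). Of the 15 upstream genes, Mapk8 (0.45, SE 0.0846) and Mapk9 (0.25, SE 0.0483), which encode the kinases JNK1 and JNK2, rose, and Elk1 (-0.52, SE 0.0776), a partner of serum response factor at the Fos promoter, fell. Of 6 tested target genes, Tnf (-1.29, SE 0.169) and Vim (-0.63, SE 0.126) fell. The median log2 difference was -0.09 for the bZIP factors, -0.05 for the upstream genes and -0.09 for the targets, against 0.00 for all genes tested.

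Whether the difference between CD25 KO and WT in AP-1 genes was unlike in spleen and thymus was then tested in 1 fit of all 18 samples. Mouse model, age, the time since CD25 deletion and the date in the column names changed with tissue. Their parts in a difference between the tissues cannot be told apart here. Fosl2 was called: its log2 difference was 0.88 in the spleen and -0.01 in the thymus, and the effects differed by 0.90 (SE 0.135, edgeR adjusted p = 1.72e-04). It was the 1 of 5 members called, where 6.98% of 18686 genes were. For Jun the effects differed by 1.22 (SE 0.436, edgeR adjusted p = 0.0599), which was called without thymic WT mouse 4 (1.45, adjusted p = 0.00231). For Fosb and Fos they differed by 1.66 (SE 0.801, adjusted p = 0.157) and 1.01 (SE 0.617, adjusted p = 0.268). Junb was -0.04 apart (SE 0.195, edgeR adjusted p = 0.908).

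Splenic and thymic WT Tregs differed in 2 of the 5 members, where 40.4% of genes were called. Fosl2 was 3.52-fold lower in the spleen (log2 -1.82, SE 0.100, edgeR adjusted p = 7.04e-12), and Junb was 2.59-fold higher there (log2 1.37, SE 0.138, adjusted p = 6.51e-08). Neither gene overlapped between the tissues. By mean, Fosl2 levels ran from splenic WT (21.4 ± 2.00 CPM, n = 4) through splenic CD25 KO (39.3 ± 5.26, n = 4) to thymic CD25 KO (74.1 ± 9.14, n = 5) and thymic WT (75.4 ± 5.26, n = 5; all SD), and the last pair did not differ beyond its spread. Splenic CD25 KO mice, at 34.1–46.4 CPM, stayed below every thymic mouse, at 64.7–83.6. Junb ran from thymic WT (185 ± 34.7 CPM) and CD25 KO (214 ± 42.0) to splenic WT (480 ± 34.0) and CD25 KO (539 ± 44.1), and within either tissue the neighbours did not pass the test. Fos, Fosb and Jun differed by 0.48, 0.57 and 0.58 on the log2 scale (edgeR adjusted p = 0.365, 0.403 and 0.116), and thymic WT mice 1, 2 and 3 were at or near splenic levels in all of them. Tissue, the date in the column names, age and mouse model cannot be told apart here.

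Atf3, a stress-induced factor that often represses, had 8, 3, 6, 4 and 4 reads in thymic WT mice and 0, 1, 0, 2 and 0 reads in thymic CD25 KO mice. No CD25 KO mouse reached a WT mouse. The summed counts, 25 and 3, gave a ratio of CD25 KO over WT of 0.132 (exact 95% interval 0.0256–0.434, for counting error only). Without the filter on low counts, the log2 difference was -2.71 (SE 0.772, edgeR adjusted p = 0.0305), which was not called. In the spleen Atf3 had 10, 7, 5 and 6 reads in WT and 5, 10, 6 and 9 in CD25 KO mice, a ratio of 0.974 (0.563–1.69).

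Batf3, a Batf family factor known from dendritic cells, had 0 to 3 reads in each library, and Jund had 0 to 2. A level of 3 reads corresponds to 0.0950–0.163 CPM, and no difference between groups was detectable at this depth. No level was read for Jund, a gene widely expressed in lymphocytes. In the annotation, 52.6% of its exonic bases lie under exons of a gene on the opposite strand, Gm11175, which had no read either, and whether the counting used strand is not given in the sources used here. Of 206 protein-coding genes with 40 to 65% of their exonic bases under opposite-strand exons, as Jund has, 32 (15.5%) had at most 3 counts in every library, against 5649 of 15866 (35.6%) with under 1%, and 38 of 39 (97.4%) with at least 99%. The part of such overlaps in the Jund counts was not tested. Smaller overlaps touch Jun (7.28% under Junos, which had 20 to 116 counts) and Junb (7.52% under Prdx2, which had 1031 to 2162).

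In GRCm38 the members lie at chr12:85473890-85477273 (Fos, plus strand), chr7:19302696-19310051 (Fosb, minus), chr5:32135801-32157842 (Fosl2, plus), chr4:95049034-95052222 (Jun, minus), chr8:84974484-84978718 (Junb, minus), chr8:70698949-70700616 (Jund, plus), chr1:191170296-191218039 (Atf3, minus) and chr1:191097847-191108945 (Batf3, plus). All 8 are protein-coding genes, and Jun and Jund have a single exon.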

How the data were processed

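Counts per gene were deposited by the authors without normalization. Per the labels and the study's methods, the libraries were made with KAPA RNA Hyperprep, and 75 bp paired-end reads were aligned to GRCm38 with STAR (2.5.0b) and counted over GENCODE M13 genes with featureCounts (1.5.0). Whether the counting used strand is not given in the sources used here. Symbols, coordinates and exonic lengths were taken from GENCODE M21 of the same build, in which 50376 of 50600 identifiers have a symbol. The members and all gene lists were chosen with earlier results of these data known.

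Within each tissue, low genes were dropped with filterByExpr and TMM factors were computed, after which the genotypes were compared with edgeR (glmQLFTest) and p-values were adjusted over all genes tested after Benjamini and Hochberg (R 4.3.3, edgeR 4.0.16; DESeq2 1.42.0 as an alternative). DE genes had FDR under 0.01. The difference of the effects and the comparison of WT tissues used 1 fit of all 18 samples with 4 groups. CPM values come from the 18-sample scaling, and log2 CPM from a prior count of 2. The scripts were tested on simulated data. One of the marker lists is not reported here. Named genes were the 8 members, up to 3 called genes per list, tissue and direction with the largest fold changes, and for each member the 3 genes with the highest r. Any other gene is said to be chosen after its values were seen, apart from genes that check labels, markers without a read or overlapping genes. Promoters come from RefSeq (GRCm38.p6), with all 8 members matched. The searched motifs were picked with the promoters in hand. Depth was 17239774 to 32639570 counts, which puts 3 counts at 0.0950–0.163 CPM. Alternatives were RLE and upper-quartile scaling, DESeq2, other filters, FDR 0.05, removal of a GC trend, 1 fit of all samples, a replicate block in the thymus, leaving out each mouse and, chosen after seeing the data, leaving out the 2 thymic mice with the most immature thymocyte counts.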

Additional observations from a re-analysis of the deposited data

Results flagged for a closer look

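In thymic WT mice, the lowest Junb value, 124.9 CPM in mouse 4, lay far from the other 4 (192–212 CPM) by Dixon's test. Of 20 checks of 5 members in 4 groups it was the 1 that stood out, and chance alone gives about 1 in 20. The same mouse had the highest sum of immature thymocyte markers, 172 CPM.

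The CD25 KO effect on Fosl2 differed between the tissues, by 0.9018 on the log2 scale (spleen minus thymus, edgeR adjusted p = 1.72e-04). Fosl2 was higher in 4 of 4 splenic CD25 KO mice than in any splenic WT mouse, and the thymic ranges overlapped.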

How the results depend on the processing

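The rise of splenic Fosl2 was called under all 16 alternatives run (log2 0.79 to 0.94), and so were its difference between the tissues under all 26 (0.81 to 0.96) and its lower and the higher Junb level in splenic WT Tregs under all 26. The thymic count of called members was 0 and became 1 (Jun) with DESeq2, without the filter, at FDR 0.05, with all 18 samples in 1 fit, and without the 2 mice with the most immature thymocyte counts, an alternative chosen after seeing the data. Leaving out 1 mouse at a time gave 0 to 1, with 1 (Jun) without WT mouse 4. Jun stayed below 0 throughout (-1.65 to -1.08, adjusted p 0.00174 to 0.0929), as did Fos (-1.47 to -0.66, adjusted p 0.0140 to 0.494) and Fosb (-2.34 to -1.38, adjusted p 0.0109 to 0.368). The splenic count of 1 became 2 (Fosb) without the filter, and leaving out 1 mouse gave 1 to 2, with 2 without CD25 KO mouse 4. Fosb in the spleen ranged from -0.58 to -0.22 (adjusted p 4.12e-04 to 0.769). For the difference between tissues, the count of 1 became 2 (Jun) without the 2 mice, and leaving out 1 mouse gave 1 to 2, with 2 without thymic WT mouse 4.

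Values near 0 changed sign. Thymic Fosl2 (-0.01) was 0.026 with upper-quartile scaling, 0.096 with the GC trend removed, 0.091 with the replicate block and the GC trend removed, 0.011 without the 2 mice, and -0.053 to 0.031 over the mice left out, above 0 without WT mouse 2 (0.017) or 4 (0.014) or CD25 KO mouse 2 (0.031) or 4 (0.030). The Junb difference between tissues (-0.04) was 0.063 without thymic WT mouse 4 and 0.00038 without thymic CD25 KO mouse 2, and went down to -0.15 without thymic CD25 KO mouse 5.

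Mice with the same number in the thymus did not deviate together (r of deviations -0.24 to 0.14), and with a replicate block 209 of 16986 genes were called in place of 1047, with none of the members among them. Over all genes, the thymic calls were also 2730 with DESeq2, 3951 at FDR 0.05 and 2881 with all 18 samples in 1 fit, and leaving out 1 mouse gave 371 to 1087. The splenic calls, 1651, were 795 with all 18 samples in 1 fit and 3001 at FDR 0.05, and calls of the difference, 1305, were 2188 with DESeq2 and 3149 at FDR 0.05. Upper-quartile scaling moved thymic calls from 539 higher and 508 lower to 808 and 440, and calls of the difference from 840 and 465 to 616 and 669. Low counts left Jund, Atf3 and Batf3 untested.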
